A study of Mus musculus with 12 samples.

Results

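The genes described here are 36 genes of cholesterol and fatty acid synthesis, of their control by sterol regulatory element binding proteins (SREBPs), and of sterol export, out of 46078 genes counted. They were selected by gene symbol and by a filter of 10 or more counts in at least 3 libraries, and 36 of 36 had 10 or more counts in all 12 libraries. The list was chosen with earlier results of these data known. Its counts and medians beside those of all genes are therefore a description and not an independent test. The lowest value was 21 counts, for *Scd1* in an in vivo library, so no listed gene lay outside the limit. By role they comprised 19 sterol synthesis genes, 5 genes of SREBP control, 2 genes of sterol transport within the cell, 8 fatty acid synthesis genes and 2 efflux genes.

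RNA-seq was performed on hematopoietic stem and progenitor cells of C57BL/6 mice (LSK cells, which lack lineage markers and carry Sca-1 and c-Kit) infected with a lentivirus carrying enhanced green fluorescent protein (GFP) and an shRNA against luciferase (shLuci, control) or against *Rad21* (shRad21), which encodes a subunit of the cohesin ring. Each of the 4 groups had 3 libraries: shLuci and shRad21 cells kept in culture for 3 d and sorted as GFP+CD48-Sca-1+ cells, and shLuci and shRad21 cells reisolated as GFP+ LSK cells after transplantation into lethally irradiated recipients, 3 mo later by the labels and at a later time by the study's text. Culture libraries were made with the TruSeq RNA v2 kit and in vivo libraries by SMART-Seq v4 amplification followed by Nextera XT. Thus setting, sorted population, kit and sequencing lane change together between the experiments and cannot be told apart. The sources used here do not say which of the study's *Rad21* shRNAs was used, nor whether the 3 libraries of a group came from separate cultures or mice, so p values measure only the spread between these libraries.

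Cells make cholesterol from acetyl-CoA through mevalonate, squalene and lanosterol. When sterols in the endoplasmic reticulum are low, SCAP carries the SREBPs to the Golgi apparatus, where they are cut and released to switch on genes of sterol and fatty acid synthesis, and INSIG proteins hold SCAP back when sterols are high. Liver X receptors (LXRs), activated by oxysterols, switch on the exporters ABCA1 and ABCG1, so that synthesis and export are commonly regulated in opposite directions.

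SREBPs bind sterol regulatory elements in promoters together with NF-Y, which binds CCAAT boxes, and SREBP1 can also bind E-boxes. Promoters in the RefSeq table (GRCm38.p6) were matched by symbol for 27 of the 36 members, and the 250 bases before each start were searched on both strands for a core of the sterol regulatory element (TCACNCCAC, in which N is any base), the CCAAT box and the E-box CACGTG. The CCAAT box was found in 20 of 27 members (74.1%), compared with 37.5% of all 27025 genes with a promoter in the table. CACGTG was found in 6 of 27 members (22.2%; *Abca1*, *Dhcr7*, *Hsd17b7*, *Insig1*, *Sc5d* and *Scap*) and in 6.86% of all genes, and TCACNCCAC in 1 of 27 (3.70%; *Hmgcs1*) and in 1.23% of all genes. These matches are a description of letters in this window and not of binding.

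The stretches below are shown because they hold these motifs in members whose values are given below: *Hmgcs1*, the only member with the sterol element core, *Pmvk*, *Hsd17b7*, *Mvd*, *Cyp51* and *Lss*, which were lower after *Rad21* knockdown in culture, *Insig1*, whose product holds SCAP back, and the exporter *Abca1*. Each is written 5′ to 3′ on the strand of its gene with 25 bases on either side of the outermost motifs where the window allowed, and capitals mark the motifs. ATTGG is the CCAAT box and the E-box is its own reverse complement. No motifs overlapped in these 8 stretches.
Hmgcs1 (chr13:119690101-119690335, + strand): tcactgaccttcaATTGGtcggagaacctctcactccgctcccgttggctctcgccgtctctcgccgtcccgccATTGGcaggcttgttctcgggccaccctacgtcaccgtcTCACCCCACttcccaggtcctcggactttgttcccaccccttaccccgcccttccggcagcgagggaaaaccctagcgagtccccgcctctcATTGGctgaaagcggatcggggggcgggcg
Pmvk (chr3:89454380-89454434, + strand): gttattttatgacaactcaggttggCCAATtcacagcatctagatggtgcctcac
Hsd17b7 (chr1:169969206-169969395, - strand): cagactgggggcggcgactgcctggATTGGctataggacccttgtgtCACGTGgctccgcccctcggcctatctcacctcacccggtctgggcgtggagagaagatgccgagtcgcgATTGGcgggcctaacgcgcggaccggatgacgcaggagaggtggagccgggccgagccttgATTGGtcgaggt
Mvd (chr8:122443423-122443507, - strand): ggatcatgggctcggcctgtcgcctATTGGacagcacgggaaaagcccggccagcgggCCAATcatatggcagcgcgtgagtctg
Lss (chr10:76531518-76531572, + strand): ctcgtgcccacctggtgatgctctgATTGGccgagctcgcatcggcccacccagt
Cyp51 (chr5:4104698-4104751, - strand): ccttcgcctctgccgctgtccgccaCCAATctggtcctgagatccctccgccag
Insig1 (chr5:28071171-28071341, + strand): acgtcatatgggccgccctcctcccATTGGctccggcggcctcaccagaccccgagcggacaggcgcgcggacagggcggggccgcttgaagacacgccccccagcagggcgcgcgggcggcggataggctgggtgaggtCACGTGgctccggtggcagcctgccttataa
Abca1 (chr4:53160012-53160067, - strand): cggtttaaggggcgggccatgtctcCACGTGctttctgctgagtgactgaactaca
In *Hmgcs1* the sterol element core lay between the second and the third of 3 CCAAT boxes, *Hsd17b7* held 3 CCAAT boxes and 1 E-box, *Mvd* held 2 CCAAT boxes, and *Pmvk*, *Lss* and *Cyp51* held 1 each. *Insig1* held 1 CCAAT box and 1 E-box, and *Abca1* held an E-box and no CCAAT box. CCAAT boxes were not confined to members that were lower in culture. *Mvk*, which was not called, held 5, *Ggps1* and *Fasn*, also not called, held 3 each, and *Acat2*, called lower, held 0. Whether the motifs bear on the response to knockdown was not tested.

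Libraries held between 15235129 and 29846689 counts, so that 3 counts corresponded to between 0.101 and 0.197 CPM (counts scaled to a fixed library total), and such limits cover counting error only. Normalized expression is given as CPM scaled by the trimmed mean of M values (TMM). *Rad21* was at 383–418 CPM in shLuci and 128–154 CPM in shRad21 cells in culture, and at 118–124 and 43.4–47.6 CPM in vivo, with log2 fold changes of -1.52 ± 0.089 and -1.43 ± 0.071 (± SE). The progenitor genes *Kit*, *Ly6a*, *Cd34*, *Ptprc* and *Cd48* were detected in all 4 groups, *Cd48* also in the culture libraries that were sorted as CD48-. The markers *Ly6g*, *C1qa* and *Cd8a*, of granulocytes, macrophages and T cells, were at 0 in the culture libraries. Each was the only gene at 0 in its list, and other genes of these lists were detected. In shLuci culture libraries the summed level was 103–146 CPM for myeloid and 12.8–29.5 CPM for lymphoid markers. For macrophage and dendritic cell markers it was 126–179 CPM. The share of counts on mitochondrial genes was between 1.06% and 1.98%. Some members share sequence with other genes and their values are uncertain to that extent: 38.9% of the 51-base windows of *Acat2* also occurred in *Acat3*, and the share was 30.3% for *Acaca*, 26.1% for *Fdps*, 17.6% for *Idi1*, 9.82% for *Tm7sf2* and 9.16% for *Fdft1*. Of the exonic bases of *Fdps*, *Fdft1*, *Scap*, *Hmgcs1*, *Tm7sf2* and *Idi1*, between 9.22% and 26.7% lay within another annotated gene, and whether the counting used strand is not given in the sources used here.

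In control cells, the synthesis genes were far higher in culture than in vivo and the efflux genes far lower. The 36 members together took 1.11–1.14% of all counts in the shLuci culture libraries and 0.243–0.265% in the shLuci in vivo libraries. By edgeR's quasi-likelihood test, 30 members were higher in culture and 4 lower at an adjusted p under 0.05, whereas of all 17050 genes tested 37.1% were called higher, 37.1% lower and 74.2% in either direction. The median log2 difference of the members was 2.47, compared with -0.006 for all genes. Because most genes differed between the experiments, these calls are read as a description of the libraries. Upper-quartile scaling shifted all genes by a median of -0.12 and scaling to library size by a median of -0.17, and the calls of members stayed at 30 and 4 under both. Markers of other cells differed as well: in culture 4 of 4 lymphoid (median log2 difference -5.43), 5 of 6 myeloid (-4.22), 4 of 5 erythroid (-3.69), 4 of 4 mast cell and basophil (-2.78), 3 of 6 macrophage and dendritic cell and 7 of 10 proliferation genes (-0.66) were lower, 1 erythroid, 1 macrophage and dendritic cell and 3 proliferation genes were higher, and 3 of 5 stem cell markers (0.33) were higher. Of the megakaryocyte markers 2 were higher and 1 lower of 4 (1.26), and of the LSK genes 2 were higher and 3 lower of 5 (-0.30). The part of these markers in the result was not tested.

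Of the 19 sterol synthesis genes, 17 were higher in culture, with a median log2 difference of 3.18. *Hmgcs1* (HMG-CoA synthase, which makes the precursor of mevalonate) was at 1135, 1130 and 1032 CPM in culture and 62.7, 58.8 and 48.9 CPM in vivo, a log2 difference of 4.27 ± 0.12. *Lss* (lanosterol synthase, which closes the sterol ring) was at 460, 445 and 550 CPM and 32.5, 31.2 and 31.8 CPM, and the difference was 3.93 ± 0.12. *Mvd* (mevalonate diphosphate decarboxylase) was at 126, 123 and 149 CPM and 8.94, 8.81 and 8.53 CPM, with a difference of 3.92 ± 0.15. In each case the groups were far apart relative to the spread of their libraries, and the adjusted p values were between 8.97e-13 and 1.19e-11. *Cyp51*, *Hsd17b7*, *Msmo1*, *Idi1* and *Fdps* differed by between 3.55 and 3.81 on the log2 scale. The exceptions were *Ebp* (emopamil binding protein, a sterol isomerase), which was lower in culture (-0.83 ± 0.11, adjusted p = 9.06e-06), and *Ggps1*, which makes geranylgeranyl diphosphate for protein prenylation rather than sterols and did not pass the test (0.073, 95% interval -0.14 to 0.29).

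**Figure D1:**
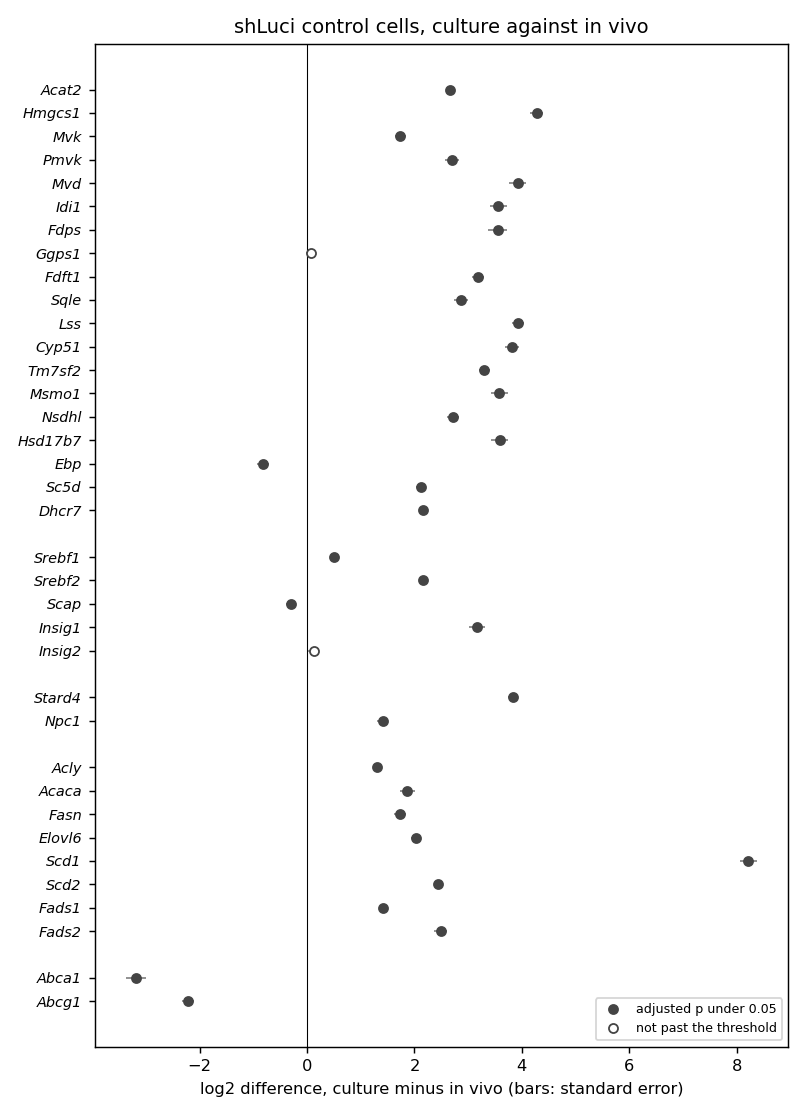
Log2 difference of each member between shLuci control cells in culture and in vivo (x axis, culture minus in vivo; bars, standard error), with genes grouped by role in the order sterol synthesis, SREBP control, sterol transport, fatty acid synthesis and efflux. Filled points passed the test; 30 filled points lie to the right of 0, *Scd1* farthest at 8.22, and the efflux genes *Abca1* and *Abcg1* lie farthest to the left.

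Genes of SREBP control differed less uniformly. *Srebf2*, which encodes SREBP2, the main driver of sterol synthesis, was higher in culture (2.17 ± 0.063), as was *Insig1* (3.16 ± 0.15), itself an SREBP target. *Srebf1* differed by 0.50, *Scap* was lower in culture (-0.30), and *Insig2* did not pass the test (0.12, 95% interval -0.089 to 0.34). Of the transport genes, *Stard4*, which carries cholesterol between membranes, was at 570, 625 and 588 CPM in culture and 41.3, 40.9 and 42.8 CPM in vivo (3.83 ± 0.083), and *Npc1*, which moves cholesterol out of lysosomes, differed by 1.41.

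All 8 fatty acid synthesis genes were higher in culture, with a median log2 difference of 1.95. *Scd1* (chr19:44394455-44407879 in GENCODE M21, on GRCm38), a stearoyl-CoA desaturase that makes monounsaturated fatty acids, was at 356, 409 and 395 CPM in culture and at 1.16, 1.06 and 1.63 CPM in vivo, where it had 26, 21 and 37 counts, and the log2 difference was 8.22 ± 0.16. Its paralog *Scd2* was abundant in both settings, at 1905, 2071 and 2107 CPM and 362, 402 and 351 CPM (2.45 ± 0.078). *Fads2*, *Elovl6*, *Acaca*, *Fasn*, *Fads1* and *Acly* differed by between 1.29 and 2.49. The efflux genes went the other way. *Abca1* was at 3.86, 3.64 and 3.83 CPM in culture and 35.5, 34.5 and 33.0 CPM in vivo (-3.18 ± 0.18), and *Abcg1* at 13.6, 14.9 and 16.4 and 72.0, 73.1 and 64.9 CPM (-2.22 ± 0.11).

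Per kilobase of exonic length, *Scd2* was the highest of the members in both shLuci groups, at 371 CPM per kb in culture and 68.0 CPM per kb in vivo. In culture it was followed by *Hmgcs1* (239), *Cyp51* (180), *Acly* (149) and *Srebf2* (122), and *Abca1* was lowest (0.364). In vivo it was followed by *Acly* (60.8), *Ebp* (31.8), *Fads1* (28.9) and *Srebf2* (27.2), and *Scd1* was lowest (0.262).

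**Figure D2:**
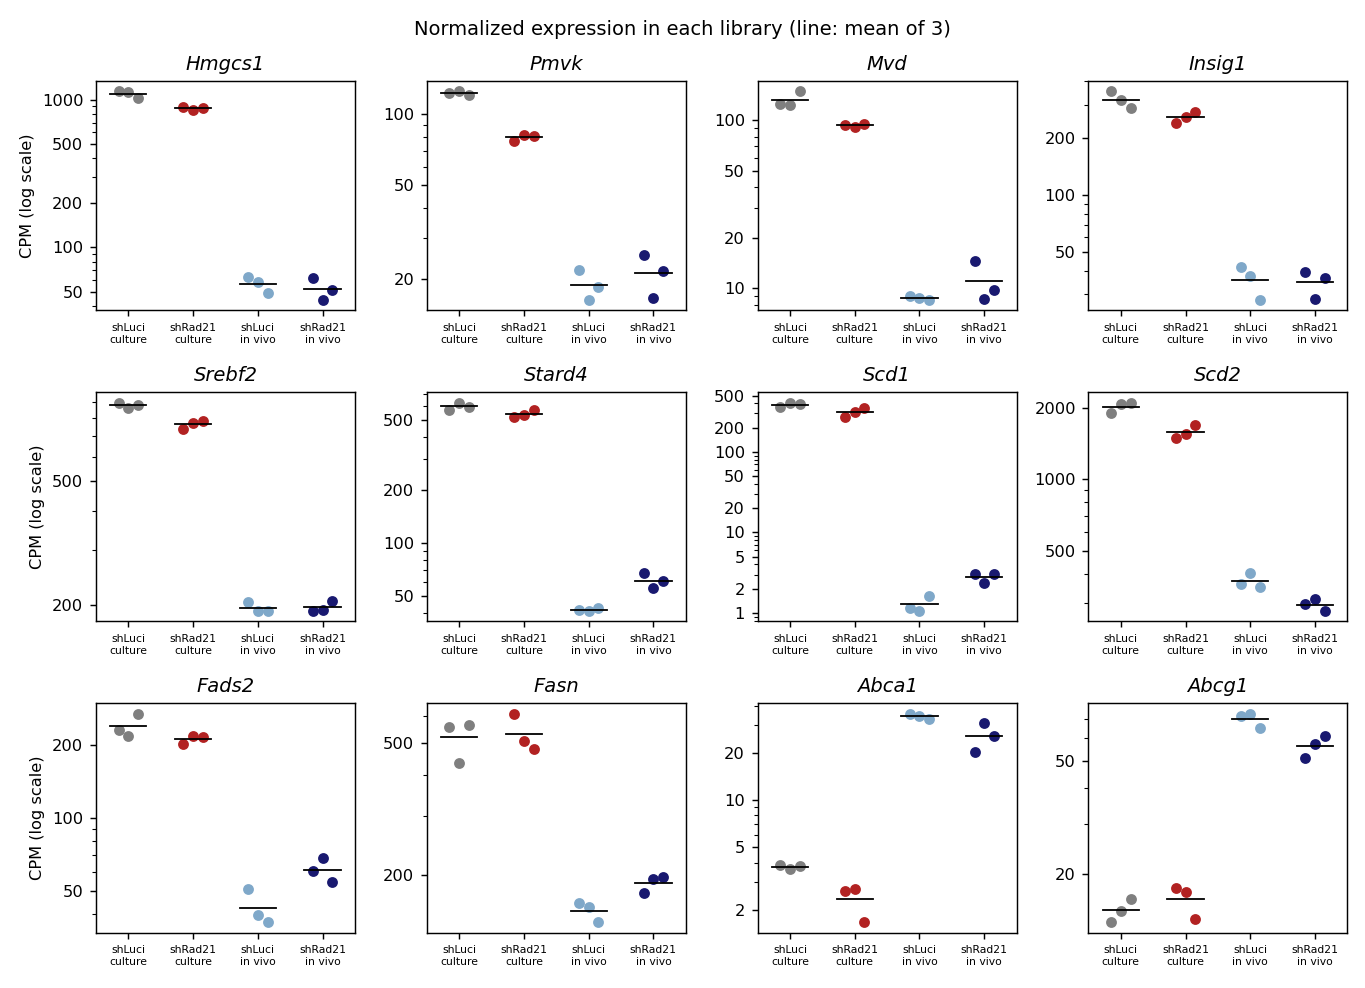
Normalized expression (CPM, log scale) of 12 members in each of the 12 libraries; points are libraries, coloured by group, and lines are means of 3. *Hmgcs1*, *Pmvk*, *Mvd*, *Insig1*, *Srebf2*, *Scd1*, *Scd2* and *Abca1* have all shRad21 culture libraries below all shLuci culture libraries. *Stard4*, *Scd1*, *Fads2* and *Fasn* have all shRad21 in vivo libraries above all shLuci in vivo libraries, and *Scd2*, *Abca1* and *Abcg1* have them below.

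To examine what *Rad21* knockdown did to these genes, shRad21 cells were compared with shLuci cells within each experiment. In culture, sterol synthesis genes were lower in shRad21 cells: 11 of 19 fell past the threshold, none rose, and all 19 fitted values were below 0, with a median log2 fold change of -0.31. *Scd2* also fell, so that 12 of the 36 members were lower, 0 higher and 24 did not pass the test. At an unadjusted p under 0.05, 19 were lower and 0 higher, and with DESeq2 14 were called lower and 0 higher. Of all 15543 genes tested in culture, 8.06% were called lower, 6.18% higher and 14.2% in either direction, and the median of all genes was -0.004 whereas that of the members was -0.20. With no overlap between the 3 shLuci and the 3 shRad21 libraries were 21 of the 36 members, against 4900 of all 15543 genes (31.5%). The summed level of the 19 sterol synthesis genes was 5416, 5220 and 5021 CPM in shLuci cells and 4095, 4055 and 4343 CPM in shRad21 cells.

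The largest fall in the pathway was that of *Pmvk* (phosphomevalonate kinase), which was at 122, 125 and 121 CPM in shLuci and 77.0, 81.3 and 81.0 CPM in shRad21 cells. Its log2 fold change was -0.61 ± 0.072 (adjusted p = 0.000355), that is 34.5% less. *Hsd17b7*, which encodes a sterol ketone reductase, was at 132, 126 and 104 CPM and 79.8, 82.4 and 91.8 CPM, and fell by 0.50 on the log2 scale (SE 0.10, adjusted p = 0.00662). *Mvd* was at 126, 123 and 149 CPM and 94.1, 91.6 and 94.6 CPM, a log2 fold change of -0.50 ± 0.087 (adjusted p = 0.00326). For all 3 genes each shRad21 library was below each shLuci library, and the call held whichever single library was left out.

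Other enzymes that act after squalene fell as well. *Msmo1* (methylsterol monooxygenase) was at 690, 644 and 580 CPM in shLuci and 477, 461 and 509 CPM in shRad21 cells (-0.40 ± 0.087, adjusted p = 0.0115). *Cyp51* (lanosterol demethylase) was at 853, 825 and 704 CPM and 587, 596 and 628 CPM (-0.39 ± 0.090, adjusted p = 0.0150). *Lss* was at 460, 445 and 550 CPM and 371, 346 and 390 CPM (-0.39 ± 0.10, adjusted p = 0.0210). The groups did not overlap for any of these enzymes, although shRad21 replicate 3 came closest to the controls for *Cyp51* and *Msmo1*. *Sc5d*, an enzyme of the last steps, was at 173, 164 and 147 CPM and 120, 127 and 137 CPM (-0.33 ± 0.087, adjusted p = 0.0273).

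At the start of the pathway, *Hmgcs1* was at 1135, 1130 and 1032 CPM in shLuci and 896, 848 and 875 CPM in shRad21 cells (-0.32 ± 0.079, adjusted p = 0.0195). *Acat2*, which joins 2 acetyl-CoA units and part of whose reads cannot be told from *Acat3*, was at 185, 189 and 193 CPM and 149, 152 and 152 CPM (-0.32 ± 0.069, adjusted p = 0.0115). *Fdft1* (squalene synthase) and *Tm7sf2* (a sterol reductase) changed by -0.31 and -0.31, with adjusted p values of 0.0166 and 0.0340. *Sqle* (squalene epoxidase), a rate-limiting enzyme, did not pass the test: it was at 584, 518 and 479 CPM in shLuci and 464, 454 and 507 CPM in shRad21 cells, with overlap (-0.14 ± 0.092, adjusted p = 0.371). *Mvk*, *Idi1*, *Fdps*, *Ggps1*, *Nsdhl*, *Ebp* and *Dhcr7* did not pass either, with values between -0.25 and -0.0076.

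Of the 5 genes of SREBP control, 0 passed the test in culture, 2 were lower at an unadjusted p under 0.05, and DESeq2 called *Insig1*. *Insig1* was at 354, 319 and 289 CPM in shLuci and 242, 258 and 277 CPM in shRad21 cells, without overlap (-0.30 ± 0.092, adjusted p = 0.0550). *Srebf2* was at 897, 859 and 878 CPM and 736, 769 and 784 CPM, also without overlap (-0.20 ± 0.075, adjusted p = 0.119). *Srebf1* was at -0.021 (95% interval -0.19 to 0.15), *Scap* at -0.074 and *Insig2* at -0.059 on the log2 scale. With the replicate number as a block, since same-numbered culture libraries deviated together, *Insig1* passed (adjusted p = 0.0292, 0.0264 to 0.165 over the alternatives) and so did *Abca1* (adjusted p = 0.0206, 0.0206 to 0.0827).

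Among fatty acid synthesis genes, 1 of 8 fell in culture. *Scd2* was at 1905, 2071 and 2107 CPM in shLuci and 1499, 1557 and 1689 CPM in shRad21 cells (-0.35 ± 0.086, adjusted p = 0.0199), with every shRad21 library below every shLuci library. *Scd1* was at 356, 409 and 395 CPM and 269, 315 and 348 CPM, with a fold change that missed the threshold (-0.31 ± 0.10, adjusted p = 0.0707). It passed under 3 of 7 alternatives, when 2 of the 8 genes fell. These were the replicate block (adjusted p = 0.0107, 0.0107 to 0.0773 over the alternatives), DESeq2 (0.0355) and every gene with a count kept (0.0207). *Fads1* was at -0.23 and *Fads2* at -0.17, and *Acly*, *Acaca*, *Fasn* and *Elovl6* were between -0.12 and 0.11. Of the efflux genes, *Abca1* was at 3.86, 3.64 and 3.83 CPM in shLuci and 2.64, 2.73 and 1.67 CPM in shRad21 cells (-0.69 ± 0.22, adjusted p = 0.0642), and *Abcg1* at 13.6, 14.9 and 16.4 and 18, 17.4 and 14.0 CPM (0.14 ± 0.13, adjusted p = 0.572).

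The number of members called lower in culture depended on single libraries. It was 6 without shLuci replicate 2, 4 without shRad21 replicate 1 and 3 without shRad21 replicate 2, when 8.66%, 10.7% and 8.47% of all genes were called in either direction. It was 9 without shLuci replicate 1 or shRad21 replicate 3, 13 without shLuci replicate 3, and between 11 and 15 under the alternatives that kept all libraries. Of the genes lower in culture, *Msmo1* was called in 5 of the 6 reduced comparisons, *Lss* in 4, *Cyp51*, *Acat2*, *Fdft1* and *Scd2* in 3 each, *Sc5d* in 2, and *Hmgcs1* and *Tm7sf2* in 1 each.

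**Figure D3:**
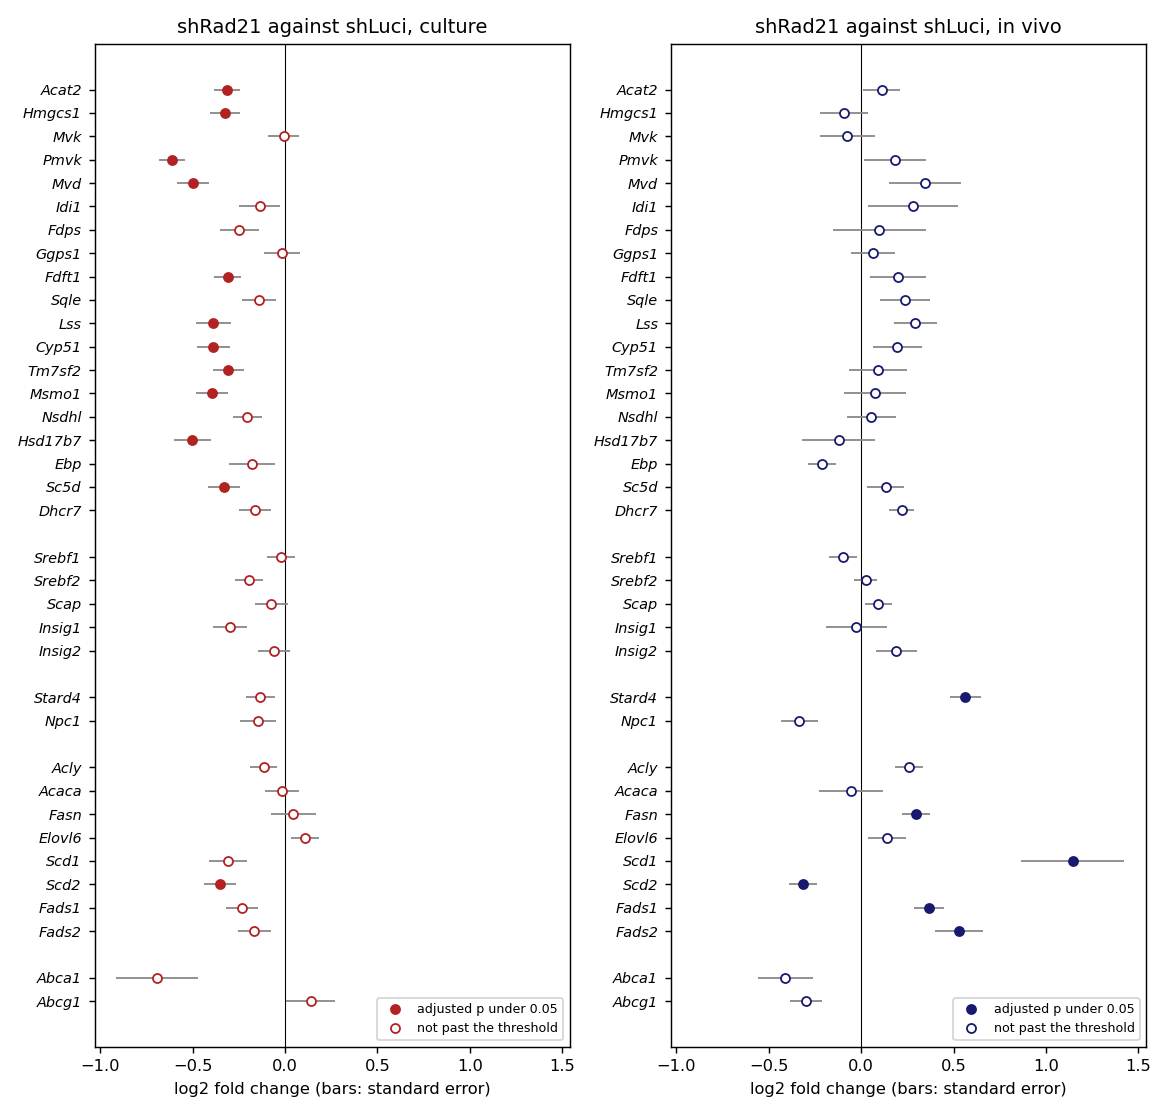
Log2 fold change of each member between shRad21 and shLuci cells in culture (left) and in vivo (right), with standard errors and genes grouped by role as in the plot of control cells; filled points passed the test. In culture 12 filled points lie left of 0 and none right of it, whereas in vivo 5 lie right of 0 and 1, *Scd2*, left of it.

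In vivo, sterol synthesis genes did not pass the test in either direction, while 4 of the 8 fatty acid synthesis genes and *Stard4* rose. At an unadjusted p under 0.05, 2 of the 19 sterol synthesis genes were higher and 1 lower, and with DESeq2 0 were called. In all, 5 members were higher, 1 was lower and 30 did not pass. Of all 15938 genes tested in vivo, 5.65% were called higher, 5.32% lower and 11% in either direction, and the median was 0.10 for the members and -0.002 for all genes. There was no overlap between groups for 13 of the 36 members, against 4633 of all 15938 genes (29.1%).

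*Stard4* was at 41.3, 40.9 and 42.8 CPM in shLuci and 66.9, 55.1 and 60.9 CPM in shRad21 cells, and all shRad21 libraries were higher. Its log2 fold change was 0.56 ± 0.083 (adjusted p = 0.00248), or 47.7% more. *Scd1* was at 1.16, 1.06 and 1.63 CPM in shLuci and 3.06, 2.38 and 3.01 CPM in shRad21 cells, from 21–37 and 53–67 counts, with a log2 fold change of 1.14 ± 0.28 (adjusted p = 0.0282). Even after this rise, *Scd1* in vivo remained far below its level in culture. *Fads2*, a desaturase of polyunsaturated fatty acids, was at 51, 39.6 and 37.1 CPM and 60.2, 68.1 and 54.2 CPM (0.53 ± 0.13, adjusted p = 0.0273), and its partner *Fads1* was at 149, 145 and 123 CPM and 185, 175 and 172 CPM (0.37 ± 0.082, adjusted p = 0.0184). *Fasn* (fatty acid synthase) was at 164, 160 and 144 CPM in shLuci and 176, 195 and 198 CPM in shRad21 cells (0.30 ± 0.075, adjusted p = 0.0336). The groups did not overlap for any of these genes.

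*Scd2* was the one member that fell in vivo, from 362, 402 and 351 CPM to 297, 313 and 279 CPM (-0.31 ± 0.075, adjusted p = 0.0263), and it also fell in culture. The paralogs *Scd1* and *Scd2* thus changed in opposite directions in vivo, where *Scd2* was the more abundant by far. *Acly*, which makes cytosolic acetyl-CoA, was at 343, 315 and 304 CPM and 345, 392 and 401 CPM (0.26 ± 0.075, adjusted p = 0.0582), without overlap, and was called higher under 6 of 7 alternatives. The transport gene *Npc1* went the other way from *Stard4* in vivo (-0.33, adjusted p = 0.0679), without overlap. It was called lower under 3 of 7 alternatives (adjusted p 0.0268 to 0.0981). In culture *Npc1* did not pass (-0.15, adjusted p = 0.384).

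Of the 19 sterol synthesis genes, 15 had values above 0 in vivo and the median was 0.11. Their summed level was 642, 636 and 596 CPM in shLuci and 755, 589 and 644 CPM in shRad21 cells, so that the groups overlapped and shRad21 replicate 1 was the highest. *Hmgcs1* was at 62.7, 58.8 and 48.9 CPM and 62.3, 44.2 and 51.5 CPM (-0.10 ± 0.13, adjusted p = 0.732), and *Sqle* at 77.9, 76.5 and 62.4 CPM and 102, 69.6 and 81.9 CPM (0.24 ± 0.13, adjusted p = 0.329). *Sqle* was called higher under 1 of 7 alternatives, with every gene with a count kept (adjusted p = 0.0285, 0.0285 to 0.312 over the alternatives). *Lss* (0.29) and *Dhcr7* (0.22) had all shRad21 libraries above all shLuci libraries without passing the test, and *Ebp* (-0.21) had them below. Of the 12 members that were lower in culture, 9 had values above 0 and 3 below 0 in vivo.

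Of the 5 genes of SREBP control, 0 passed the test in vivo, with 0 at an unadjusted p under 0.05 and 0 with DESeq2. *Insig1* was at 41.8, 37.5 and 28.1 CPM and 39.6, 28.4 and 36.4 CPM (-0.026 ± 0.16, adjusted p = 0.949), and *Srebf2* at 204, 191 and 191 CPM and 191, 192 and 206 CPM (0.024 ± 0.060, adjusted p = 0.867). The 95% interval of *Srebf2* was -0.11 to 0.16, narrower than the -0.39 to 0.34 of *Insig1*. Both efflux genes had each shRad21 library below each shLuci library. *Abca1* was at 35.5, 34.5 and 33.0 CPM and 20.1, 30.9 and 25.6 CPM (-0.41 ± 0.15, adjusted p = 0.126), and *Abcg1* at 72.0, 73.1 and 64.9 CPM and 51, 57.2 and 60.9 CPM (-0.30 ± 0.088, adjusted p = 0.0595). With DESeq2 both were called lower, with adjusted p values of 0.0455 and 0.0264 (over the alternatives, 0.0219 to 0.123 for *Abca1* and 0.0264 to 0.0815 for *Abcg1*).

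The number of members called in vivo was 2 without shLuci replicate 2 or without shRad21 replicate 3, and 3 without shRad21 replicate 1, when 7.29%, 5.76% and 6.94% of all genes were called in either direction. *Stard4* was called in all 6 of these reduced comparisons, *Fads1* in 4, *Scd2* in 3, and *Scd1*, *Fads2* and *Fasn* in 2 each.

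**Figure D4:**
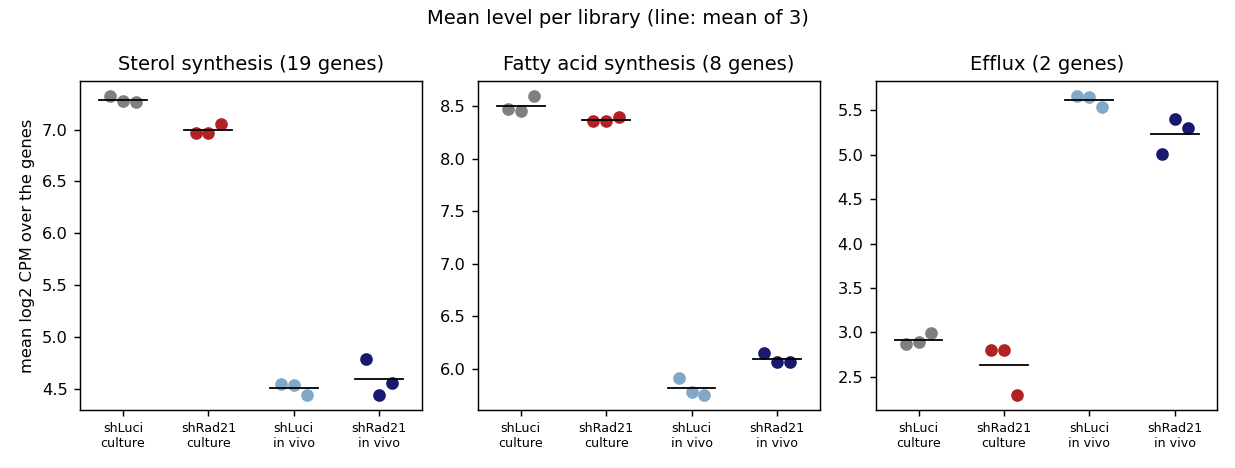
Mean log2 CPM over the 19 sterol synthesis genes, the 8 fatty acid synthesis genes and the 2 efflux genes in each library; points are libraries, coloured by group, and lines are means of 3. Both synthesis panels are high in culture and low in vivo and the efflux panel the reverse, and in the sterol panel the shRad21 culture libraries (6.96, 6.97 and 7.06) lie below the shLuci culture libraries (7.27–7.33).

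The difference between the knockdown effects in culture and in vivo was tested as an interaction in all 12 libraries. It was negative past the threshold for 9 members and positive for 0 (16 and 1 at an unadjusted p under 0.05, 13 and 0 with DESeq2). All 9 had fitted values below 0 in culture and above 0 in vivo, and none of them passed the knockdown test in both settings. Of all 17050 genes, 3.03% were called negative, 1.64% positive and 4.67% in either direction. The median was -0.35 for the members and 0.006 for all genes. The 9 members were *Scd1* (-1.44 ± 0.23, adjusted p = 0.00255), *Stard4* (-0.69 ± 0.11, adjusted p = 0.00191), *Fads1*, *Fads2* and *Acly* of fatty acid synthesis, and *Mvd*, *Pmvk*, *Lss* and *Acat2* of sterol synthesis, whose values were between -0.84 and -0.36. *Acly* did not pass with the replicate block (adjusted p = 0.0844, 0.00956 to 0.0844 over the alternatives). The number of members called was 4 without shRad21 culture replicate 1 or 2 (3.04% and 2.79% of all genes in either direction) and 5 without shLuci in vivo replicate 2 (3.43%).

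For other members that passed in one setting alone, the difference between settings was not established. *Hmgcs1* differed by -0.22 (95% interval -0.55 to 0.11), *Hsd17b7* by -0.38 (-0.82 to 0.074), *Msmo1* by -0.46 (-0.91 to -0.022) and *Fasn* by -0.24 (-0.57 to 0.086). *Cyp51* and *Sc5d* had adjusted p values of 0.0674 and 0.0516, and DESeq2 called both. *Fdft1* and *Tm7sf2*, which passed in culture alone, did not pass this test either. Of 6 alternatives, 2 called *Fdft1* (adjusted p 0.00785 to 0.0926), 1 called *Msmo1* (0.00724 to 0.252) and 0 called *Tm7sf2* (0.104 to 0.300). For *Scd2*, which fell in both settings, the difference was -0.029 (-0.25 to 0.19).

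Genes around these pathways were read from lists of their own. Of 10 isoprenoid branch genes, which use the same mevalonate products, 1 rose in culture (*Fnta*, a subunit of protein farnesyltransferase, 0.28) and 0 passed in vivo (0 at an unadjusted p under 0.05 and 0 with DESeq2). Of 6 genes that cut or degrade SREBP pathway proteins, 0 passed in either setting, with 0 at an unadjusted p under 0.05 and 0 with DESeq2. Of 20 genes of fatty acid activation, elongation and glycerolipid synthesis, 1 rose and 3 fell in culture: *Acacb*, which makes malonyl-CoA at mitochondria, rose (0.83), and *Dgat2*, which completes triglycerides (-1.40), *Elovl7* (-0.70) and *Acsl3* (-0.29) fell. In vivo 3 of the 20 rose and 0 fell. These were *Acss2*, which makes acetyl-CoA from acetate and is an SREBP target (0.38), the elongation enzyme *Hsd17b12* (0.31), and *Lpin1*, which makes diacylglycerol (0.40).

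Genes of the LXR axis moved in both directions. In culture 3 of 10 rose and 2 fell, and in vivo 2 of 11 rose and 2 fell. *Nr1h3*, which encodes LXRα, was at 0.771–1.23 CPM in shLuci and 3.05–4.02 CPM in shRad21 cells in culture, and at 2.0–2.30 and 5.27–5.66 CPM in vivo, with log2 fold changes of 1.69 ± 0.24 (adjusted p = 0.00109) and 1.34 ± 0.20 (adjusted p = 0.00248). *Apoe*, an LXR target and cholesterol acceptor, was 1.08 in culture and 0.37 in vivo and rose in both, whereas the targets *Abca1* and *Abcg1* passed in neither. *Arl4c* fell in both settings (-0.74 and -0.99), as did *Rxrb*, and *Rxra* rose in culture (0.66). Of 12 genes of lipoprotein uptake, esterification and lysosomal handling, 3 fell in culture and 1 in vivo. The endocytic receptor *Lrp1* fell in both, by 1.36 and 1.21 on the log2 scale, and *Vldlr* and *Gramd1a* fell in culture.

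Other markers moved with the knockdown. Proliferation genes passed in 0 of 10 cases in culture (3 higher at an unadjusted p under 0.05, 0 with DESeq2), where their summed level was 2324–2604 CPM in shLuci and 2275–2697 CPM in shRad21 cells. In vivo, 6 of 10 proliferation genes fell and the summed level was 2503–2668 and 1900–2324 CPM. Hematopoietic stem cell markers rose in 4 of 5 cases in culture (589–718 and 851–997 CPM) and in 3 of 5 in vivo (413–503 and 475–612 CPM). Myeloid markers fell in 4 of 5 cases in culture (103–146 and 38.0–54.0 CPM) and in 3 of 6 in vivo (1535–2170 and 1123–1389 CPM). Lymphoid markers fell in 4 of 4 cases in vivo (443–717 and 84.3–154 CPM), and of 2 tested in culture none passed. Of the megakaryocyte markers 2 rose and 1 fell in culture, and 3 of 4 rose in vivo. Macrophage and dendritic cell markers fell in 3 of 4 cases in culture and 2 of 6 in vivo. Of the mast cell and basophil markers 1 (*Cpa3*) rose and 0 fell in each setting, of 3 tested in culture and 4 in vivo, where the other 3 had values below 0 and the median was -0.46. Their summed level was 10.3–19.3 CPM in shLuci and 24.3–77.5 CPM in shRad21 cells in culture, and 76.0–110 and 116–196 CPM in vivo. At an unadjusted p under 0.05, 0 of these markers were lower in culture and 2 in vivo, and with DESeq2 0 and 1. Erythroid markers had 1 higher and 1 lower of 3 in culture (140–178 and 70.5–105 CPM) and 2 lower of 5 in vivo (103–116 and 52.5–79.3 CPM). Of the LSK genes 1 of 5 fell in culture, *Kit*, from 676–827 to 266–293 CPM (-1.42 ± 0.094), and in vivo *Kit* and *Cd34* fell and *Ly6a* rose. The part of these shifts in the results for the lipid genes was not tested, and in these bulk samples fewer cells of a type and less RNA per cell cannot be told apart.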

How the data were processed

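The deposited values are raw read counts per gene, whole numbers with no normalization, for 12 RNA-seq libraries in 4 groups of 3. Per the study's methods and the submitters' processing notes, the authors demultiplexed with bcl2fastq 1.8.4, checked reads with FastQC 0.11.3, mapped them to GRCm38 with TopHat2 2.0.11, counted them with HTSeq 0.6.1 and tested with DESeq2 1.16.1. The strand setting and annotation release of the counting are not given in the sources used here. Of 46078 identifiers, 45229 were matched to GENCODE M21.

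Here, counts were analysed in R 4.3.3 with edgeR 4.0.16: TMM scaling, filterByExpr, quasi-likelihood tests (two-sided) and Benjamini-Hochberg adjustment over all genes tested, with a threshold of 0.05. Knockdown was tested separately within the 6 culture and the 6 in vivo libraries, and the control comparison and the interaction in all 12. Standard errors were taken as the log2 change divided by the square root of F, and 95% intervals used the t distribution. The biological coefficient of variation was 0.106 in culture and 0.140 in vivo. The chi-square per degree of freedom between replicates was between 6.16 and 22.6, so that over all genes together replicate spread exceeded counting error. For members with few counts, such as *Scd1* in vivo, depth limits the precision as well. Limits from depth cover counting error only, as the reads carried no molecular identifiers. The whole procedure was tested on simulated counts with known changes.

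Alternatives were DESeq2 1.42.0, upper-quartile scaling, library-size scaling, no filter on low counts, a filter of 10 counts in every library, a replicate block, one model of all 12 libraries, and each library left out in turn. Same-numbered shLuci and shRad21 libraries deviated together in culture (r of 0.201 to 0.252 over 3 pairs, against -0.31 to 0.072 for other pairs), and not in vivo (0.027 to 0.065). Members and gene lists were chosen with earlier results of these data known. Values in every library were given for the members past the threshold (at most 10 per comparison) and for *Insig1*, *Srebf2*, *Sqle*, *Hmgcs1*, *Scd2*, *Abca1* and *Abcg1*. Promoter sequences are from RefSeq (GRCm38.p6). Tables were handled in Python 3.11.15 with pandas 2.3.3, and plots were drawn with matplotlib 3.10.9.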

Additional observations from a re-analysis of the deposited data

Results flagged for a closer look

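For 9 members the effect of *Rad21* knockdown differed between culture and in vivo by the interaction term of edgeR's quasi-likelihood test over 12 libraries. The differences in log2 fold change (culture minus in vivo) were -1.44 for *Scd1*, -0.84 for *Mvd*, -0.79 for *Pmvk*, -0.69 for *Stard4*, -0.69 for *Fads2*, -0.67 for *Lss*, -0.59 for *Fads1*, -0.42 for *Acat2* and -0.36 for *Acly*. For *Scd1*, *Stard4* and *Fads1* the call held whichever single library was left out, for *Lss* in 11 of 12 cases, for *Pmvk* in 7, for *Mvd* in 6, for *Fads2* and *Acat2* in 4 and for *Acly* in 2. Setting, kit, sorted population and lane cannot be told apart in this difference. Groups of 3 libraries are too small for a check of single libraries that stand apart.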

How the results depend on the processing

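The counts of members called between control cells in culture and in vivo (30 higher, 4 lower) were the same under all 6 alternatives and whichever library was left out. In culture, members called lower numbered 11 to 15 under 7 alternatives (15 with the replicate block, 14 with DESeq2), and 3 to 13 when 1 library was left out. The one model of all 12 libraries called 8 rather than 11 sterol synthesis genes lower, having lost *Fdft1* (adjusted p = 0.0686; 0.00317 to 0.0686 over the alternatives), *Msmo1* (adjusted p = 0.0834; 0.000374 to 0.0834 over the alternatives) and *Hmgcs1* (0.0564; 0.000729 to 0.0564) and called *Srebf2* (0.0398; 0.0398 to 0.292) and *Abca1* (0.0381; 0.0206 to 0.0827) lower. *Tm7sf2* was lost with every gene kept (0.0515; 0.0182 to 0.0515). In vivo, the 6 members called became 10 with DESeq2 and 10 with every gene with a count kept, and members called lower became 4 with DESeq2, 3 with every gene kept, 3 with 10 counts in every library and 2 in one model of 12 libraries. When 1 library was left out, 2 to 6 members were called in vivo, 2 to 4 of them higher and 0 to 3 lower. With the replicate block in vivo, where the numbers do not pair the libraries, 5 members were called and *Fasn* was lost (0.0515; 0.000967 to 0.124). The 9 negative interactions became 8 to 13 under 6 alternatives (8 with the replicate block) and 4 to 11 when 1 library was left out. The cause of these changes was not tested. Fold changes close to 0 in vivo changed sign with 1 library left out: *Insig1* was between -0.18 and 0.10, *Hmgcs1* between -0.23 and 0.016 and *Srebf2* between -0.0072 and 0.054. The block changed no call of a member beyond *Insig1*, *Scd1* and *Abca1* in culture, *Fasn* in vivo and *Acly* in the interaction. Depth limits *Scd1* in vivo most, with 21 to 67 counts per library. Next were *Idi1* and *Abca1*, with at least 46 and 47 counts, and the lowest count of *Abca1* was in a culture library.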
